A study of Mus musculus with 6 samples.

Results

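The dermal fibroblast transcription factors are 9 genes named as factors of the dorsal dermis lineage, En1, Tbx15, Prrx1, Prrx2, Twist1, Twist2, Osr2, Meox2 and Ebf1. They were read by all 21 probe sets whose platform annotation gives one of these symbols alone, out of 45037 probe sets and 18193 named genes measured. The RNA came from back skin of mouse embryos at E15.5 and was hybridised to Affymetrix MOE430 2.0 arrays, on which a probe set is a group of short probes for a transcript. The control group held 3 samples of genotype Fzd6 +/- and the knockout group 3 samples of genotype Fzd6 -/-, all of strain C57BL6/129 mixed. The controls therefore also carry a mutant copy of Fzd6, which encodes a Wnt receptor of planar cell polarity, and wild-type skin was not part of the comparison. Samples are called biological replicates 1 to 3 in the labels, and they do not state how many embryos made up a sample.

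The dermis of the back arises largely from the dermomyotome of the somites, under Wnt signals from the overlying ectoderm and through beta-catenin in the mesenchyme. Engrailed 1, Twist1 and Twist2 mark or regulate these dermal progenitors, and En1 activity traces most of the fibroblasts of dorsal skin. Homeodomain, T-box, zinc finger and helix-loop-helix factors of this kind set regional and lineage identity of mesenchyme, and several of them also act in limb, palate, skull, vessels, muscle or fat. The comparison asked which of them differ in skin that lacks Fzd6.

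Sequence just upstream of 4 members is shown. En1, Twist1, Twist2 and Meox2 represent the homeodomain and helix-loop-helix factors of the group. Their promoters differ in matches to strings like those that Wnt effectors and Twist proteins are known to read. Each line gives the 150 bases before the transcription start, from RefSeq on GRCm38.p6, 5′ to 3′ on the strand of the gene. Capitals mark matches on either strand to CTTTGNT or to CANNTG, the E-box bound by helix-loop-helix dimers, where N is any base. CTTTGNT is similar to the core of sites for the LEF and TCF factors but not the same. A match need not fit that core, and a site with that core need not match. The stretch marked for this string in En1, read on the opposite strand, has C at the place of N.
En1 (chr1:120602337-120602486, plus strand): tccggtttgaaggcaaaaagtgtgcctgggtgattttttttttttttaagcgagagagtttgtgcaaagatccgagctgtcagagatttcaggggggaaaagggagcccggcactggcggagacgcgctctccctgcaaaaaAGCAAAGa
Twist1 (chr12:33957521-33957670, plus strand): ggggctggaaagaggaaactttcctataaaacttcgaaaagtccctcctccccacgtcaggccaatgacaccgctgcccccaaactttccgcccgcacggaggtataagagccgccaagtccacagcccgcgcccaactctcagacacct
Twist2 (chr1:91801311-91801460, plus strand): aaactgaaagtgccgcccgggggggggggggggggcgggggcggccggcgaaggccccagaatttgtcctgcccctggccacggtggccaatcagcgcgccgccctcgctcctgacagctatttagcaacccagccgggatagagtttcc
Meox2 (chr12:37108390-37108539, plus strand): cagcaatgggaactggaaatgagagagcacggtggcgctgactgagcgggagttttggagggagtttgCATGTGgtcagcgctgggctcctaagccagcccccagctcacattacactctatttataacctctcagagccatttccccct
In the 250 bases before the start, CTTTGNT was found in En1 alone among the 7 members with an entry, and it occurs in 16% of the 32851 promoters of the same length. The E-box was found in En1 (2 matches), in Meox2 (1) and before 1 of the 2 Ebf1 starts (1), beside 66.2% of all promoters. The letters TATAAA, searched on both strands, stand 126 bases before the start of Twist1 and, on the opposite strand, 29 bases before that of Meox2. They occur in 12.4% of all promoters. A match is a string of letters and not a measured binding site, and the arrays do not bear on binding.

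The arrays carried deposited log2 values with medians between 5.99 and 6.03. The labels were checked on Fzd6 itself, and its brightest probe set lay between 9.11 and 9.51 in the controls and between 8.71 and 9.07 in the knockouts, without overlap. A dimmer Fzd6 probe set lay between 6.09 and 6.22 in the controls and between 5.36 and 5.53 in the knockouts, also without overlap. The remaining one differed by −0.0097 and overlapped. The place of these probe sets relative to the mutation was not examined. Knockout 1 gave the lowest of the 6 values in 4347 of 18193 genes, or 23.9%, when a gene is represented by its brightest probe set. Among the 11849 genes above the level of the median probe set, knockout 1 was lowest in 3440, or 29.0%.

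All 9 dermal factors had a lower mean in knockout than in control skin, where 47.6% of all genes did. So did 6656 of the 11849 genes above the level of the median probe set. None of their 21 probe sets passed the test, and neither did any other on the arrays (0 of 45037 probe sets, or 0%, at a limma adjusted p under 0.05). The smallest limma adjusted p among the members was 0.909. At an unadjusted p under 0.05 there were 2 member probe sets, both of Osr2 and in opposite directions, and 5.21% of all probe sets. The differences of the 9 genes ran from −0.66 to −0.069 with a median of −0.20 (log2, knockout minus control). The median was 0.0070 over all genes and −0.019 over those above the level of the median probe set. The 95% confidence intervals reached from 0.34 to 0.90 on either side of the difference, so changes smaller than that could not be told from none at 3 arrays per group.

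**Figure D1:**
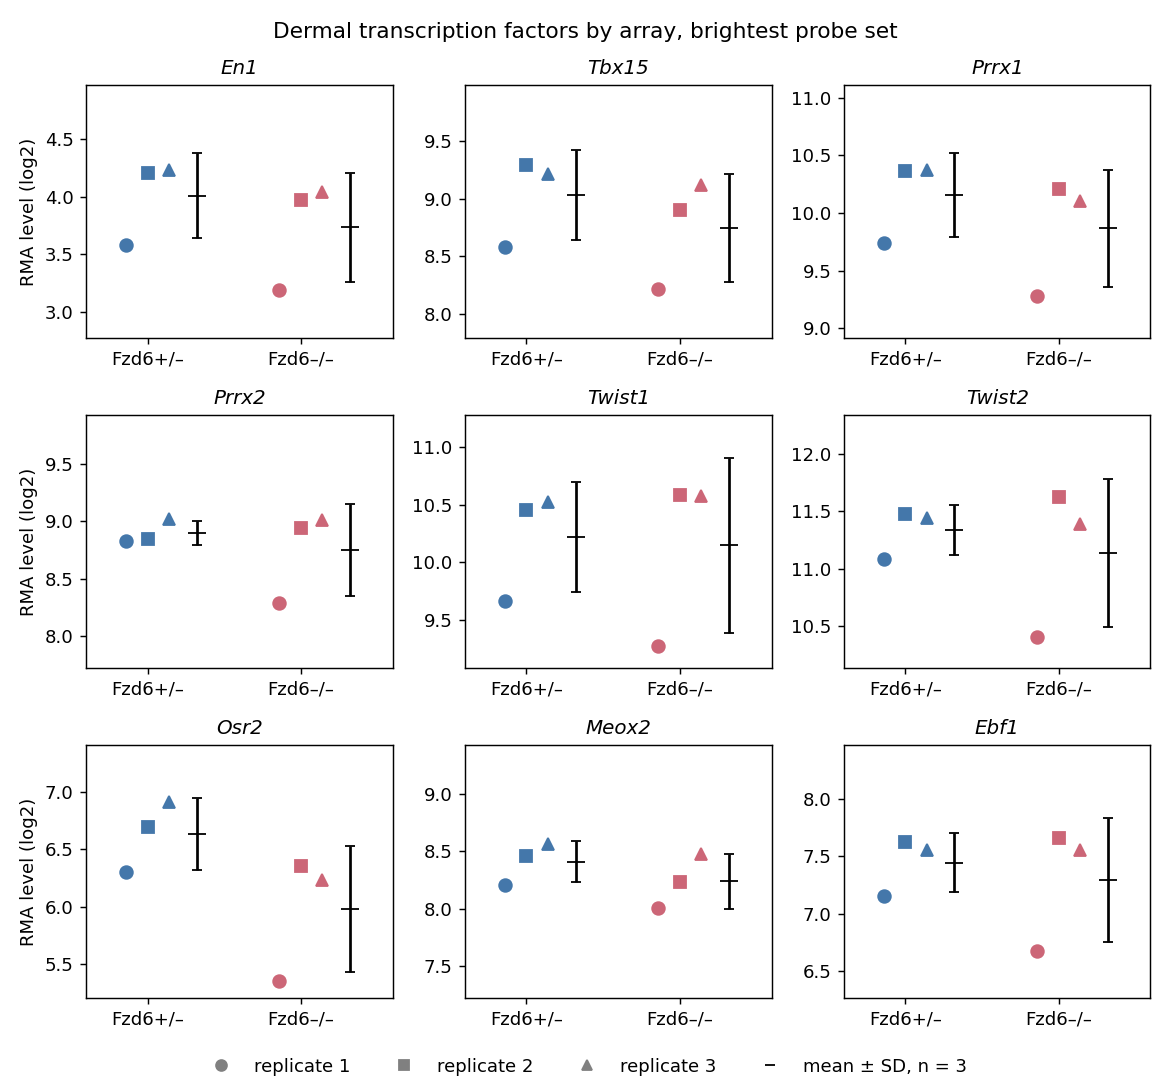
Level of each dermal factor in its brightest probe set (RMA value, log2) in the 3 control (Fzd6+/–, blue) and 3 knockout (Fzd6–/–, red) arrays, with marker shape for the replicate number and mean ± SD (n = 3) beside each group. Knockout 1 (red circle) is the lowest array in all 9 panels, and control 1 (blue circle) lies below the other controls in each.

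En1, the homeodomain factor whose expression defines the main fibroblast lineage of the back, was read by 1 probe set. It measured 3.58, 4.21 and 4.23 in controls 1 to 3 and 3.19, 3.97 and 4.04 in knockouts 1 to 3. These values lie below the array medians, so their distance from background is not known. Its mean was 4.01 ± 0.37 in control and 3.73 ± 0.47 in knockout skin (SD, n = 3). Knockout minus control was −0.27, with a 95% confidence interval of −0.89 to 0.34 (adjusted p = 0.933 in limma). The groups overlapped because control 1 lay below knockouts 2 and 3.

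Tbx15, the T-box factor that patterns dorsal skin and its pigment boundary, measured 8.59, 9.30 and 9.22 in the controls and 8.22, 8.90 and 9.12 in the knockouts. The difference was −0.29 (−0.92 to 0.34, limma adjusted p = 0.932). Within each replicate number the knockout was the lower array, by −0.37, −0.39 and −0.099 for numbers 1 to 3. A dimmer Tbx15 probe set read 5.55, 6.21 and 6.27 in controls and 5.44, 5.63 and 5.78 in knockouts, a difference of −0.40 (−0.86 to 0.065). There, control 1 was the only control below knockouts 2 and 3.

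Prrx1, a paired-related homeodomain factor of limb, face and skin mesenchyme, was read by 6 probe sets. The brightest measured 9.74, 10.37 and 10.38 in controls and 9.28, 10.21 and 10.11 in knockouts, which differed by −0.29 (−0.94 to 0.35, limma adjusted p = 0.932). The next in brightness gave the same difference, −0.29, and the others gave −0.16, −0.090, −0.38 and 0.12. The only positive difference came from the dimmest, at 3.27 to 3.56 in controls and 3.47 to 3.59 in knockouts. The probe set at −0.38 behaved unlike the brightest one, since control 1 (6.10) and not knockout 1 (6.15) was its lowest array and controls 2 and 3 (6.94 and 7.03) lay above every knockout (6.15, 6.45 and 6.34). Which transcripts of Prrx1 these probe sets read was not examined.

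Prrx2, its close relative, measured 8.83, 8.85 and 9.02 in controls and 8.29, 8.95 and 9.01 in knockouts. The difference of −0.15 (−0.59 to 0.29, limma adjusted p = 0.951) rested on knockout 1, since knockouts 2 and 3 lay within the range of the controls. Without knockout 1 it was 0.079. The log ratio of Prrx1 to Prrx2 within arrays differed between the groups by −0.14 (exact permutation p = 0.5, 3 against 3 arrays, where 0.1 is the smallest two-sided value possible).

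Twist1, a helix-loop-helix factor that holds mesenchyme in an undifferentiated state, had the smallest difference of the 9. It measured 9.67, 10.46 and 10.53 in controls and 9.27, 10.59 and 10.58 in knockouts, so knockouts 2 and 3 lay above every control and knockout 1 below every control. The difference was −0.069 with the widest interval of the group (−0.97 to 0.83, limma adjusted p = 0.993). Twist2, also called Dermo1 for its expression in dermis, measured 11.09, 11.48 and 11.44 in controls and 10.41, 11.62 and 11.39 in knockouts, which differed by −0.20 (−0.89 to 0.50, limma adjusted p = 0.962). Both Twist genes turned positive without knockout 1, at 0.37 for Twist1 and 0.17 for Twist2. Their log ratio within arrays differed by 0.13 between the groups (exact permutation p = 0.7).

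Osr2, an odd-skipped zinc finger factor known from palate and limb mesenchyme, had the most negative difference. Its brighter probe set measured 6.30, 6.69 and 6.91 in controls and 5.35, 6.35 and 6.23 in knockouts. Knockout 2 lay just above control 1, and the other knockouts below all controls. The group means of 6.63 ± 0.31 and 5.98 ± 0.55 (SD, n = 3) lay −0.66 apart (interval −1.30 to −0.012, adjusted p = 0.909 in limma, unadjusted p = 0.0467). The exact permutation p was 0.2. Without knockout 1 the difference was −0.34 (−0.75 to 0.063), and without both replicate 1 arrays it was −0.51 (−0.78 to −0.25).

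The dimmer Osr2 probe set went the other way. It read 4.11, 4.19 and 4.19 in controls and 4.34, 4.48 and 4.38 in knockouts, so that all knockouts lay above all controls, by 0.24 (0.054 to 0.43, limma adjusted p = 0.909). It was the only one of the 21 member probe sets whose groups did not overlap, and 11.6% of all probe sets showed such a separation. Its values lie below the array medians, as do knockout 1 (5.35) and the knockout mean (5.98) of the brighter probe set. The transcripts read by each probe set were not compared, so the direction for Osr2 as a gene is unsettled. Osr2 is also the member that shares chromosome 15 with Fzd6, with 23 protein-coding genes between them in the RefSeq table of GRCm38.p6. Of the 18 of these that were measured, 10 had lower and 8 higher means in the knockout, with a median difference of −0.012 and no gene whose groups were apart, and the part of the linked segment in the Osr2 values was not tested.

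Meox2, a homeodomain factor of somite-derived mesenchyme and vessels, measured 8.21, 8.46 and 8.56 in controls and 8.003, 8.23 and 8.48 in knockouts, which differed by −0.17 (−0.51 to 0.17, limma adjusted p = 0.929). Its dimmer probe set gave 6.73, 7.15 and 7.20 against 6.55, 6.65 and 6.95, a difference of −0.31 (−0.68 to 0.059). In both probe sets the knockout was below the control of the same number in each of the 3 comparisons. Meox2 also varied least over the arrays among the 9 genes, with a range of 0.56.

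Ebf1, a helix-loop-helix factor used by mesenchyme, fat precursors and B cells, was read by 5 probe sets. The brightest measured 7.15, 7.62 and 7.55 in controls and 6.67, 7.66 and 7.55 in knockouts, which differed by −0.15 (−0.76 to 0.46, limma adjusted p = 0.97). The others gave −0.25, −0.048, −0.15 and 0.026. Without knockout 1 the brightest differed by 0.16. The probe sets of 5 of the 6 B cell markers measured, Cd79a, Cd79b, Pax5, Ms4a1 and Vpreb1, read below the array medians, where their distance from background is not known, and the list averaged 5.17 to 5.31 in the controls and 5.23 to 5.29 in the knockouts.

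**Figure D2:**
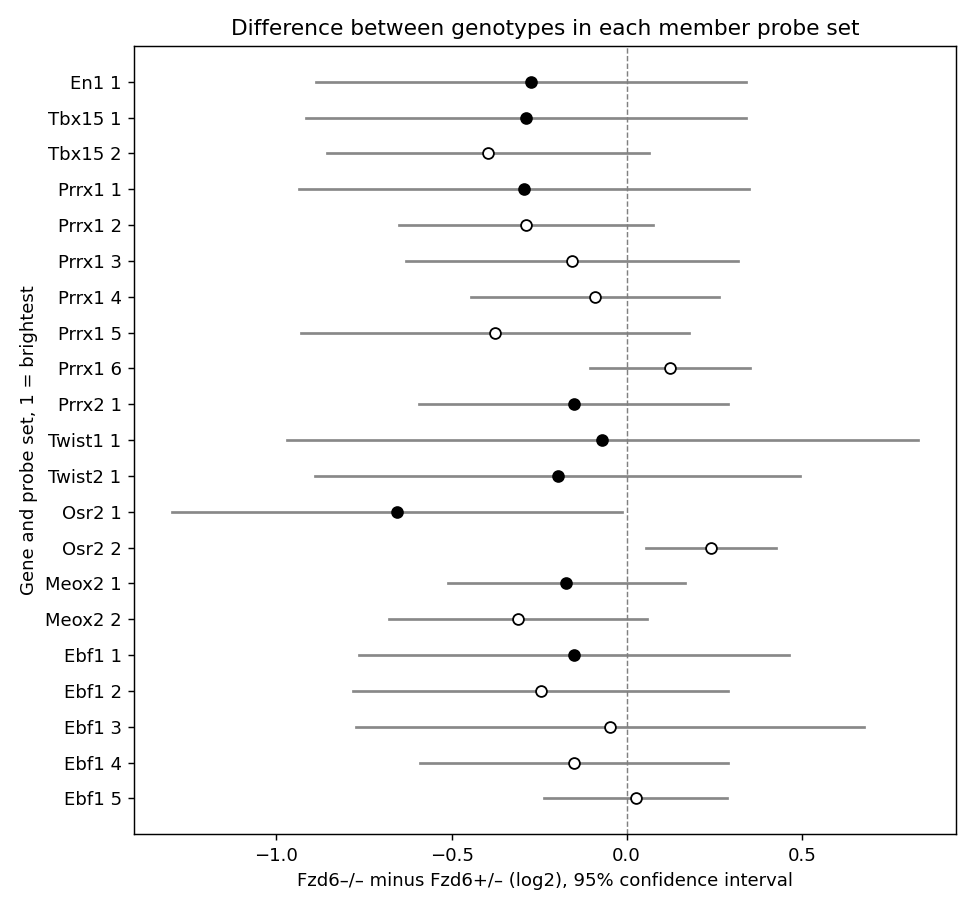
Difference between knockout and control (log2) with its 95% confidence interval for each of the 21 member probe sets, ordered by gene and numbered from the brightest (filled circles) to dimmer ones (open circles). Of the 21, 18 lie below 0, and the interval leaves out 0 only for both Osr2 probe sets, which lie on opposite sides.

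Across all 21 probe sets, 18 had a lower and 3 a higher mean in the knockout, beside 49.4% lower on the whole array. The 3 with higher means, the dimmest of Prrx1, Osr2 and Ebf1, all lay below the level of the median probe set. Of the 9 genes, 8 lay above it in their brightest probe set, En1 being the exception.

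The members shared a pattern across arrays that was larger than the difference between genotypes. Knockout 1 was the lowest array for 9 of 9 genes (23.9% of all genes, 29.0% of those above the level of the median probe set). For 8 of 9, all but Osr2, control 1 was the next lowest (13.5% of all genes). The mean deviation of the 9 genes from their own 6-array means was −0.21, 0.27 and 0.31 in controls 1 to 3 and −0.70, 0.16 and 0.17 in knockouts 1 to 3. The median SD within groups was 0.433 for the members, 0.157 for all genes above the level of the median probe set and 0.135 for all genes. In these bulk samples, fewer dermal cells and less of each RNA per dermal cell cannot be told apart.

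Markers of dermal fibroblasts moved with the members across arrays. All 25 measured genes of the fibroblast matrix and surface list, which includes Col1a1, Col3a1, Dcn, Lum and Pdgfra, lay above the level of the median probe set. The list averaged 11.1, 11.6 and 11.5 in the controls and 10.9, 11.5 and 11.5 in the knockouts, or deviations of −0.27, 0.25 and 0.14 and of −0.46, 0.20 and 0.14. Knockout 1 was the lowest array in 19 of the 25. The list had 6 genes with higher and 19 with lower means, with a median difference of −0.085, and none passed an unadjusted p under 0.05. That median was 0.18 without knockout 1, 0.058 without control 2, −0.027 without control 3, −0.25 without control 1 or knockout 2 and −0.20 without knockout 3. Its smallest p belonged to the collagen Col14a1 (−0.23, −0.48 to 0.023) and the small proteoglycan Ogn (−0.24, −0.53 to 0.042).

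Endothelial and pericyte markers were lowest in the same arrays, at −0.37 in control 1 and −0.77 in knockout 1 beside 0.26 to 0.33 elsewhere, with 11 of 12 lowest in knockout 1. Their median difference was −0.17, but 0.25 without knockout 1 and 0.031 without both replicate 1 arrays. Leaving out control 1, 2 or 3 gave −0.39, −0.011 and −0.024, and leaving out knockout 2 or 3 gave −0.29 and −0.36. The smallest p among those above the median level belonged to the adhesion molecule Pecam1 (−0.32, −0.86 to 0.22) and the receptor Tek (−0.18, −0.52 to 0.16). Keratinocyte markers were highest in knockout 1, at 0.31, and stood at 0.12 and −0.18 in knockouts 2 and 3. In controls 1 to 3 they stood at 0.040, 0.0010 and −0.29, so they were not the inverse of the members across all arrays. They had 9 of 11 higher means and a median difference of 0.22, which was 0.067 without control 3, 0.11 without knockout 1, 0.14 without knockout 2 and 0.13 without both replicate 1 arrays. The smallest p in this list belonged to Krt1 and Krt10, keratins of the spinous layer, which differed by 0.32 (0.051 to 0.59) and 0.23 (0.015 to 0.44). These 2 were higher at an unadjusted p under 0.05, as were 3.17% of all genes, and the limma adjusted p of each was 0.909. Skeletal muscle markers followed neither the members nor the keratinocyte markers, at −0.25, 0.43 and −0.045 in controls and 0.12, −0.59 and 0.33 in knockouts.

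**Figure D3:**
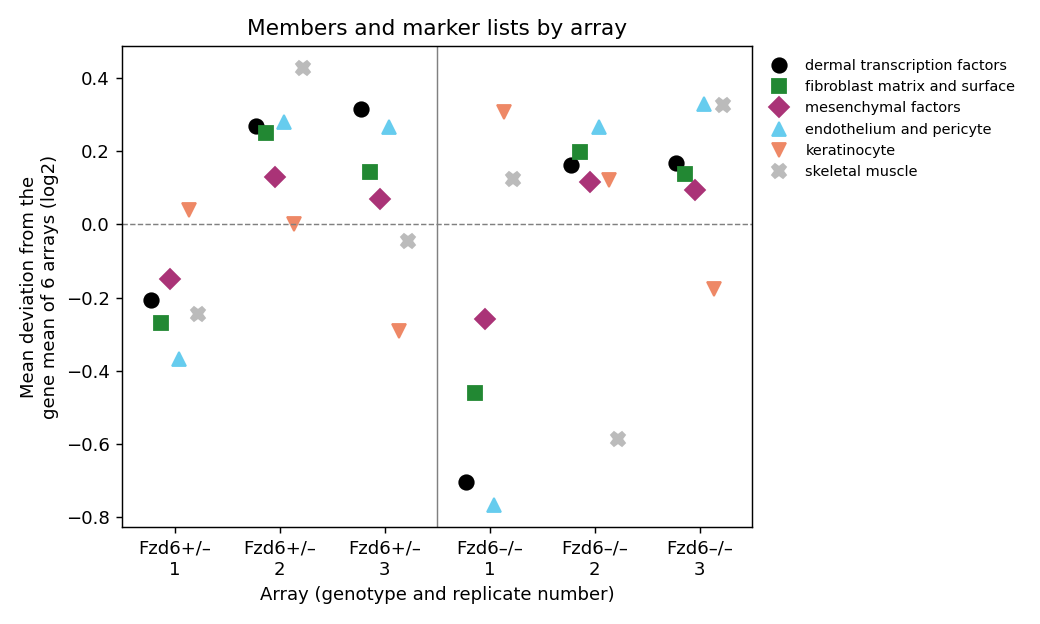
Mean deviation of each gene list from the 6-array mean of its genes (log2, brightest probe set of a gene) in the 3 control (Fzd6+/–) and 3 knockout (Fzd6–/–) arrays. The dermal transcription factors (black circles) lie lowest in knockout 1 (−0.70) and next in control 1 (−0.21), as do the fibroblast and endothelial lists, whereas keratinocyte markers are highest in knockout 1 (0.31).

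How much the genotype difference rests on single arrays was examined next. The median difference of the 9 members was −0.00063 without knockout 1, where 5 of the 9 genes and 9 of the 21 probe sets still had a lower mean in the knockout. En1, Tbx15, Prrx1 and Meox2 then differed by −0.0023, −0.022, −0.00063 and −0.054. Leaving out control 1, 2 or 3 gave medians of −0.34, −0.16 and −0.14, and leaving out knockout 2 or 3 gave −0.36 and −0.32. At an unadjusted p under 0.05 there was 1 member probe set without knockout 1, the dimmer one of Osr2, where 6.41% of all probe sets reached this level.

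Arrays were also compared by replicate number, although the labels do not say that a control and a knockout of the same number belong together. Within replicate numbers, the knockout was below the control of the same number in all 3 comparisons for 5 of 9 genes, En1, Tbx15, Prrx1, Osr2 and Meox2 (17.6% of all genes). The same 5 were lower in numbers 2 and 3 (26% of all genes). In arrays 2 and 3 alone, both knockouts lay below both controls for En1, Tbx15, Prrx1 and Osr2, or 4 of 9 genes (16.3% of all genes). Their differences there were −0.21, −0.25, −0.21 and −0.51, while those of Prrx2, Twist1, Twist2 and Ebf1 were 0.045, 0.093, 0.045 and 0.015. The median over the 9 genes in these 4 arrays was −0.15, that of the fibroblast list 0.0024 and that of all genes 0.019. Without both replicate 1 arrays, 6 member probe sets reached an unadjusted p under 0.05 (7.63% of all probe sets), 4 of them lower, and none an adjusted one (smallest limma adjusted p = 0.425).

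**Figure D4:**
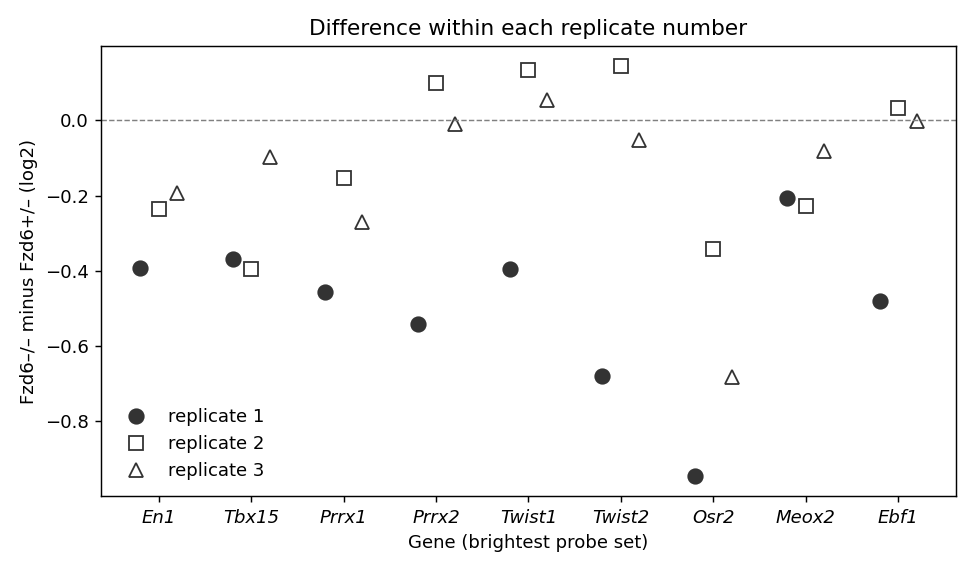
Difference between the knockout and the control array of the same replicate number (log2) for the brightest probe set of each gene, with filled circles for number 1, squares for number 2 and triangles for number 3. All 9 differences are negative in number 1, and in numbers 2 and 3 they stay below 0 for En1, Tbx15, Prrx1, Osr2 and Meox2 while those of Prrx2, Twist1, Twist2 and Ebf1 lie between −0.053 and 0.14.

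A fit with the replicate number as a block was also run. The labels do not pair arrays of the same number, and the block was chosen from correlations in these same data, so its narrower intervals depend on that choice. With the block, the count of member probe sets at an unadjusted p under 0.05 was 10 instead of 2 (12% of all probe sets in that fit), and 9 of the 10 were lower (6.88% of all). They were both of Tbx15, 3 of Prrx1, both of Osr2 (1 of them higher) and 1 each of En1, Meox2 and Ebf1. None passed the adjusted threshold in the blocked limma fit, where the smallest adjusted p of a member was 0.335. The brighter Osr2 probe set had an interval of −0.93 to −0.38 and En1 one of −0.46 to −0.089 there, while the Twist1 interval ran from −0.33 to 0.20.

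With the mean of the fibroblast list as a covariate, the median of the 9 genes was −0.13 and 8 of 9 remained negative, with Twist1 at 0.093. Osr2 then differed by −0.55 (−0.80 to −0.30, limma adjusted p = 0.32), Prrx1 by −0.18, Tbx15 by −0.18, En1 by −0.17, Meox2 by −0.13 and Ebf1 by −0.042. At an unadjusted p under 0.05 there were 6 member probe sets (10.7% of all probe sets). Relative to the mean of the other 8 members within each array, Osr2 (brighter probe set) stood at 0.22, 0.13 and 0.33 in controls. In knockouts it stood at −0.28, −0.13 and −0.27, without overlap. Ebf1 was shifted the other way, at −0.010, −0.014 and −0.14 in controls and 0.0087, 0.14 and 0.019 in knockouts, also without overlap. The mean that Ebf1 was set against includes Osr2. Relative to the mean of the fibroblast list, Ebf1 differed by −0.066 and its groups overlapped, while Osr2 differed by −0.57 without overlap. These ratios describe values within arrays, were not tested and do not tell which gene changed. How many of all genes would be apart by this measure was not computed, and Osr2 already had the most negative difference of the 9.

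Other transcription factors of mesenchyme were split in direction. Of 41 measured genes in that list, 20 had higher and 21 lower means, with a median difference of −0.00029, which lay between −0.12 and 0.097 with single arrays left out. At an unadjusted p under 0.05 there were 3 higher (3.17% of all genes) and 1 lower (1.91%). The 3 were Klf4, a factor of differentiating epidermis as well as of fibroblasts (0.36, 0.067 to 0.66), the homeodomain factor Msx1 (0.22, 0.034 to 0.40) and Dlx5, a distal-less homeodomain factor (0.32, 0.030 to 0.61), the last named after its value was seen. Knockout 1 was the lowest array for 22 of the 41.

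The close relatives of the members, described after their values were seen, varied. Ebf2 was the 1 with a lower mean at an unadjusted p under 0.05, with values of 6.49, 6.26 and 6.01 in controls and 5.13, 5.58 and 6.01 in knockouts (−0.68, −1.20 to −0.16). Its mean over the arrays lay below the level of the median probe set, and without both replicate 1 arrays Ebf2 differed by −0.34. Ebf3 differed by −0.37 (−0.92 to 0.17), Tbx18 by −0.38 (−0.95 to 0.18) and Osr1 by −0.26 (−0.96 to 0.45). Meox1 differed by −0.026 and En2, at 3.64 to 3.79 in all arrays, by −0.062. The list of E-proteins, with which Twist factors pair, and of Id factors, which bind E-proteins, had 6 of 7 lower means with a median of −0.15. The median was 0.013 without knockout 1, −0.095 without control 2, −0.24 without knockout 2, −0.23 without knockout 3 and −0.058 without both replicate 1 arrays. Among them were the E-protein Tcf12 (−0.20, −0.53 to 0.13) and the inhibitor Id1 (−0.13, −0.32 to 0.059), and none reached an unadjusted p under 0.05.

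The genes whose array profile was closest to the mean profile of the 9 members were Atp8b2, Cmtm3, Stard8, Gramd1a and Hspa12b, among 11841 genes above the median level. Their root mean square differences from it over the 6 arrays were 0.0278 to 0.0394 (log2). Among the members, En1 and Tbx15 were nearest to each other (0.0547), and Ebf1 and Twist2 were too (0.0744). Of all genes above the median level, the nearest was Fads1 for Tbx15, Gpsm1 for Prrx1, Pde3b for Prrx2, Parvb for Twist1, Mapk11 for Twist2, Dnajc27 for Meox2 and Eva1b for Ebf1. The nearest gene to Osr2 was Rspo1, a secreted Wnt agonist, at 0.114, farther than for any of the other 7 members so compared (0.0299 to 0.0514). These distances describe 6 arrays and were chosen for their size.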

How the data were processed

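Skins were kept in Trizol and their RNA purified with RNeasy, per the labels' protocols. The deposited log2 values are summaries per probe set that the authors made by RMA (version not stated), per the submitters' processing notes. The log2 scale was read from the deposited values, since they run from 2.39 to 14.8 and the log base is not written. RMA brings the arrays to nearly one distribution, so a shift of most genes would not show.

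Of 45101 rows, 64 array controls were left out and 45037 were tested with no filter. Names came from the platform annotation (1 symbol), updated through Entrez identifiers to the GRCm38.p6 gene table. The brightest probe set stood for a gene. The 2 groups were compared by limma 3.58.1 (R 4.3.3; lmFit, then eBayes; two-sided; no covariate), with p-values Benjamini-Hochberg adjusted over all probe sets, with a threshold of 0.05. The script was tested on simulated data with independent noise and with differences larger than those of the members. That test does not bear on changes of the size seen here.

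The members and the 11 other gene lists were chosen with earlier results of these data known. Named were all members, Fzd6, the 2 genes with the smallest p above the median level in each list, and the genes nearest in profile. Deviations of arrays with the same replicate number correlated at 0.568, 0.359 and 0.124, all above 0.1, which met the criterion for pairing. The pairing rests on the data alone, and control 2 was closer to knockout 3 (0.422) than to its own number. Alternatives were a variance trend, a filter, further normalisation, centring, array weights, the block, covariates, arrays left out and other choices of probe set. Figures were drawn with matplotlib 3.10.9.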

Additional observations from a re-analysis of the deposited data

How the results depend on the processing

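No member probe set passed the adjusted threshold under any of the 15 other fits, and the replicate block changed no other call than that 3 probe sets of the whole table passed with it instead of 0, none of them a member. At an unadjusted p under 0.05, 2348 probe sets and 2 of the members were counted. The median difference of the 9 members stayed negative, between −0.36 and −0.00063 with single arrays left out. With array weights Twist1 turned to 0.083, and with the fibroblast covariate to 0.093. With single arrays left out the ranges were −0.34 to 0.37 for Twist1, −0.28 to 0.079 for Prrx2, −0.44 to 0.17 for Twist2 and −0.33 to 0.16 for Ebf1, all 4 positive without knockout 1. Without both replicate 1 arrays they were 0.093, 0.045, 0.045 and 0.015. En1, Tbx15, Prrx1 and Meox2 stayed below 0 in the alternatives run but shrank to −0.0023, −0.022, −0.00063 and −0.054 without knockout 1. Osr2 shrank to −0.34 without knockout 1, and to −0.21 with the mean of all probe sets of a gene. En1 was left out by the filter on low values. Signal over background is unknown, which limits En1 and the dimmest probe sets most.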

Other observations

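Fat cell genes stood out in control 1. The adipocyte list deviated by 1.27 there and by −0.43 to −0.078 in the other 5 arrays, with a median difference of −0.020 over 7 genes (−0.22 to 0.025 with single arrays left out). Adipoq, which encodes the fat hormone adiponectin and was picked after its values were seen, was at 8.64 in control 1 and at 3.32 to 3.48 in the other 5 arrays. Ebf2, a factor of fat precursors, was also highest in control 1, at 6.49, while Ebf1 at 7.15 was below its level in controls 2 and 3, and the part of fat tissue in the Ebf values was not tested. Car3, an enzyme abundant in fat and muscle, differed by −1.65 (−4.26 to 0.95) and the fatty acid carrier Fabp4 by −0.63 (−1.43 to 0.17), and neither passed limma's test.

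Dermal condensate markers, those of the mesenchymal cell clusters under hair placodes, had 9 of 11 lower means with a median of −0.13. That median was 0.0033 without knockout 1, 0.0039 without both replicate 1 arrays, −0.062 without control 2 and −0.23 without knockout 2. The retinoid carrier Crabp1 differed by −0.21 (−0.50 to 0.088), and 8 of the 11 were lowest in knockout 1. Pigment cell and glial markers had 5 of 7 higher means with a median of 0.24, which was 0.025 without control 1, 0.080 without knockout 1, 0.14 without knockout 2 and 0.076 without knockout 3, and 0.11 over the mean of all probe sets of a gene. Among them were the melanin enzyme Dct (0.31, −0.14 to 0.76) and the early factor Foxd3 (−0.26, −0.56 to 0.053). Cartilage and bone markers, of a tissue that also uses Twist1 and Prrx1, gave 4 of 7 higher with a median of 0.048 (−0.044 to 0.14 with single arrays left out). Col9a1 differed by 0.11 (−0.45 to 0.67) and Sp7 by 0.048, and 4 of the 7 lay below the level of the median probe set. In skeletal muscle 9 of 12 markers had lower means, with a median of −0.15, which was 0.16 without knockout 2, 0.012 without control 2, −0.30 without control 1 or knockout 3 and −0.24 without knockout 1. Among them were Myod1 (−0.37, −1.08 to 0.35) and Chrna1 (−0.25, −0.75 to 0.25). B cell markers gave 3 of 6 higher with a median of −0.029 (−0.10 to 0.058 with single arrays left out), Igll1 at −0.12.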
